A study of Mus musculus with 16 samples.

Results

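The genes *Gabra2*, *Gabra3*, *Gabra4*, *Gabra5*, *Gabrb1*, *Gabrb2* and *Gabrd* encode subunits of the GABA-A receptor. These 7 genes were taken by symbol from the 32285 genes counted in each library, which hold 12 further GABA-A subunit genes, and all 7 were found. The RNA and the accessible chromatin of single nuclei from the dentate gyrus (DG) had been measured together in 8 mice, with 1 library for each mouse. The 4 WT mice (genotype VV, 2 females and 2 males) carry the common form of *Nrg1*, the gene of the growth factor neuregulin 1, and the 4 V321L mice (genotype LL, 2 females and 2 males) carry a psychosis-associated missense change in it. All mice gave microdissected DG tissue that had been frozen fresh and was taken through the same nuclei extraction kit, and the labels give no age. The study asked how granule cells (GCs), the principal neurons of the DG, divide into subtypes, among them semilunar granule cells, for which it used *Penk* and *Sorcs3* as markers.

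GABA-A receptors are chloride channels built from 5 subunits, most often alpha, beta and gamma subunits around 1 pore, and they carry the fast inhibition of the brain. The alpha subunit sets much of the receptor's drug response and its place in the membrane. In some receptors the delta subunit takes the place of gamma, and these lie outside the synapse and give a lasting, tonic current at low GABA levels. In GCs the delta subunit is known to pair with the alpha4 subunit, and delta receptors are the ones most sensitive to neurosteroids.

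*Gabra2*, *Gabra4* and *Gabrb1* lie in 1 gene cluster on chromosome 5. On the GRCm38.p6 assembly, the RefSeq form of mm10, *Gabra2* spans 70958392 to 71095849, *Gabra4* spans 71569734 to 71658308 and *Gabrb1* spans 71657921 to 72149572. *Gabra4* runs on the minus strand and *Gabrb1* on the plus strand, so that their 5′ ends overlap head to head, and their counts are uncertain to the extent that reads fall in this overlap. The other members are *Gabra5* on chromosome 7 (57407669 to 57591016), *Gabrb2* on chromosome 11 (42419515 to 42632591), *Gabrd* on chromosome 4 (155384979 to 155398098) and *Gabra3* on chromosome X (72432676 to 72656919). *Gabrd* is the short gene of the group at 13.1 kb, and the others run from 88.6 kb for *Gabra4* to 492 kb for *Gabrb1*.

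Chromatin over the starts of the cluster was open in GCs of every library. A peak that all 8 libraries shared covered 71095763 to 71096552 at *Gabra2*, and another covered 71657618 to 71658457 at the shared start of *Gabra4* and *Gabrb1*. A further shared peak lay at the downstream start of *Gabrb1*, from 71699392 to 71700082. The 4 promoter windows that these peaks overlap are shown because accessibility near these starts is compared further on. The *Gabra4* window runs past the end of the shared peak, and a peak covered all of it in 1 of the 8 libraries. Each runs 5′ to 3′ on the strand of its gene, from 250 bases before to 50 bases after a RefSeq start, and capitals mark the motif matches listed after them.
Gabra2, chr5:71095800-71096099, minus strand: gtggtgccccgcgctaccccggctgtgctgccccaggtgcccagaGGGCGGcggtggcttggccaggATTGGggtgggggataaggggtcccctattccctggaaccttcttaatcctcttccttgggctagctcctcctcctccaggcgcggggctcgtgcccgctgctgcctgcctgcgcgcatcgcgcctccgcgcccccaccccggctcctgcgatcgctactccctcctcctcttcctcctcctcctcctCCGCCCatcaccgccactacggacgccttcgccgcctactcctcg
Gabra4, chr5:71658259-71658558, minus strand: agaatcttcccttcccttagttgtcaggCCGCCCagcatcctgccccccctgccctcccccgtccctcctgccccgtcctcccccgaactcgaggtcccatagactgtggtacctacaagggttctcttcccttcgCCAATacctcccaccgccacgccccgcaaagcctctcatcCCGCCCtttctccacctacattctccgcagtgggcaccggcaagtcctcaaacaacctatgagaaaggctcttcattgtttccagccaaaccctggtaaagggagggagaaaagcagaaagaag
Gabrb1, upstream start, chr5:71657671-71657970, plus strand: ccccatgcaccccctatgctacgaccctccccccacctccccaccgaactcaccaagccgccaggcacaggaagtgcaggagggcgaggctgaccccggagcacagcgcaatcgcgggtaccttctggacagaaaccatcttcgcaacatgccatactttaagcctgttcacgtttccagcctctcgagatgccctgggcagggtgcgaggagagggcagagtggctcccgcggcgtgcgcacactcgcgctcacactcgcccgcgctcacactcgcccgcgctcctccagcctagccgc
Gabrb1, downstream start, chr5:71699682-71699981, plus strand: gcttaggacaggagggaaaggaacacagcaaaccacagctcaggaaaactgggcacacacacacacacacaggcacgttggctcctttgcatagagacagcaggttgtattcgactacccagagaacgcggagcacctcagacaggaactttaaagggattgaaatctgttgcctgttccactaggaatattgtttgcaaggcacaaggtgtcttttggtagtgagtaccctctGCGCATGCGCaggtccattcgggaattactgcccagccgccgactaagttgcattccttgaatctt

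RefSeq windows were matched for 6 of the 7 members, and *Gabrd* is named only. The motifs searched on both strands were the TATA box (TATAAA), the CCAAT box (CCAAT), the GC box (GGGCGG), the cAMP response element (TGACGTCA), the EGR1 motif (GCGTGGGCG), the E box (CACGTG) and the NRF1 motif, whose letters are those in capitals in the last window. The matches shown do not overlap one another. The *Gabra2* window holds the GC box at bases 46 and 256 and the CCAAT box at base 68, counted from the 5′ end. The *Gabra4* window holds the GC box at bases 29 and 177 and the CCAAT box at base 137. The GC box at base 29 lies outside the peak that all libraries shared. The downstream *Gabrb1* window holds the NRF1 motif at base 235, and the upstream *Gabrb1* window holds none of the motifs. Of all 32851 promoter windows of this length, 35.7% hold the GC box, 37.4% the CCAAT box and 0.971% the NRF1 motif. The GC content was 70% in the *Gabra2* window, 66% in the upstream *Gabrb1* window, 58.7% in the *Gabra4* window and 50.3% in the downstream *Gabrb1* window, where the median of all windows was 52.7%.

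After filtering, 16406 nuclei were left, of which 10739 were GCs, with 1311 to 2440 per WT mouse and 826 to 1225 per V321L mouse. WT libraries held 4326426 to 14624265 RNA unique molecular identifiers (UMIs) and V321L libraries 15505354 to 23582057. The median nucleus held 1096 to 1923 UMIs in WT mice and 2680 to 4146 in V321L mice, and the median mitochondrial share was 0.101% ± 0.0285 and 0.773% ± 0.361 (SD, n = 4 mice each). Depth and mitochondrial share thus separate the same mice as genotype does, and their part in any genotype difference cannot be told apart from that of *Nrg1*. Between 1 and 13 cell barcodes were shared by any 2 libraries, and 161 barcodes occurred in more than 1. The GC clusters also divided by genotype, since 1 cluster held 2833 V321L and 27 WT nuclei and another held 2288 WT and 249 V321L nuclei. Of the GC markers, *Prox1* was present at 268 CPM (UMIs of a gene scaled to 1000000 UMIs of all genes) in WT and 232 in V321L GCs, *C1ql2* at 23.9 and 329 CPM, and *Rfx3* at 3847 and 1708 CPM. The p-values of genotype comparisons within 1 class rest on the spread between mice, which edgeR estimates in part from all genes. Those of fits with the mouse as a block rest on the differences within mice, whose spread edgeR estimates in part from all genes. In the fits of GCs with CA1-like nuclei and with oligodendrocyte precursors it came almost wholly from all genes. In the fits of GCs with and without *Sorcs3* or *Penk* it came mostly from all genes. The p-value of a single member there does not measure that member's own spread between mice.

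Among the alpha subunits of GCs, *Gabra2* had the highest level for its length, followed closely by *Gabra4*. Per kb of gene, WT GCs held 5.39 ± 0.422 CPM of *Gabra2*, 4.93 ± 0.187 CPM of *Gabra4* and 0.979 ± 0.122 CPM of *Gabra5* (SD, n = 4). On this scale the WT mice overlap between *Gabra2* and *Gabra4*, and *Gabra5* lies well below both. *Gabra3*, an alpha subunit known from monoaminergic and reticular thalamic neurons, was near zero, with 1 UMI in all WT GCs and 3 in all V321L GCs, where 3 UMIs would make 0.233 and 0.183 CPM. Of the beta subunits, *Gabrb1* held 3.51 ± 0.296 and *Gabrb2* 3.26 ± 0.408 CPM per kb in WT GCs. *Gabrd* held 1.25 ± 0.673 CPM per kb in WT GCs and 8.02 ± 0.736 in V321L GCs, where it was the highest of the 7 on this scale. This rank depends on the division by its short length. In CPM, V321L GCs held *Gabrd* at 105, below every other member but *Gabra3*, with *Gabra5* next at 189.

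*Gabra4*, the alpha partner of delta in GCs, was highest in GCs of all classes named in WT mice. GCs held 436, 436, 418 and 458 CPM in WT mice F1, F2, M1 and M2, CA1-like pyramidal nuclei 229, 198.5, 217 and 168 CPM, and CA3-like pyramidal nuclei 208.5, 175, 218 and 193 CPM. In GABAergic neurons the values were 94.7, 110.3, 132 and 140.1 CPM. Every WT mouse thus had more *Gabra4* in its GCs than any WT mouse had in these 3 classes. Astrocytes stood second at 330 ± 15.1 CPM and microglia next at 285 ± 38.5 CPM in WT mice. Both of these classes also held GC RNA, since the 8 GC markers summed to 2864 to 3418 CPM in WT astrocytes and 2933 to 4209 CPM in WT microglia, against 4875 to 5961 CPM in WT GCs.

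**Figure D1:**
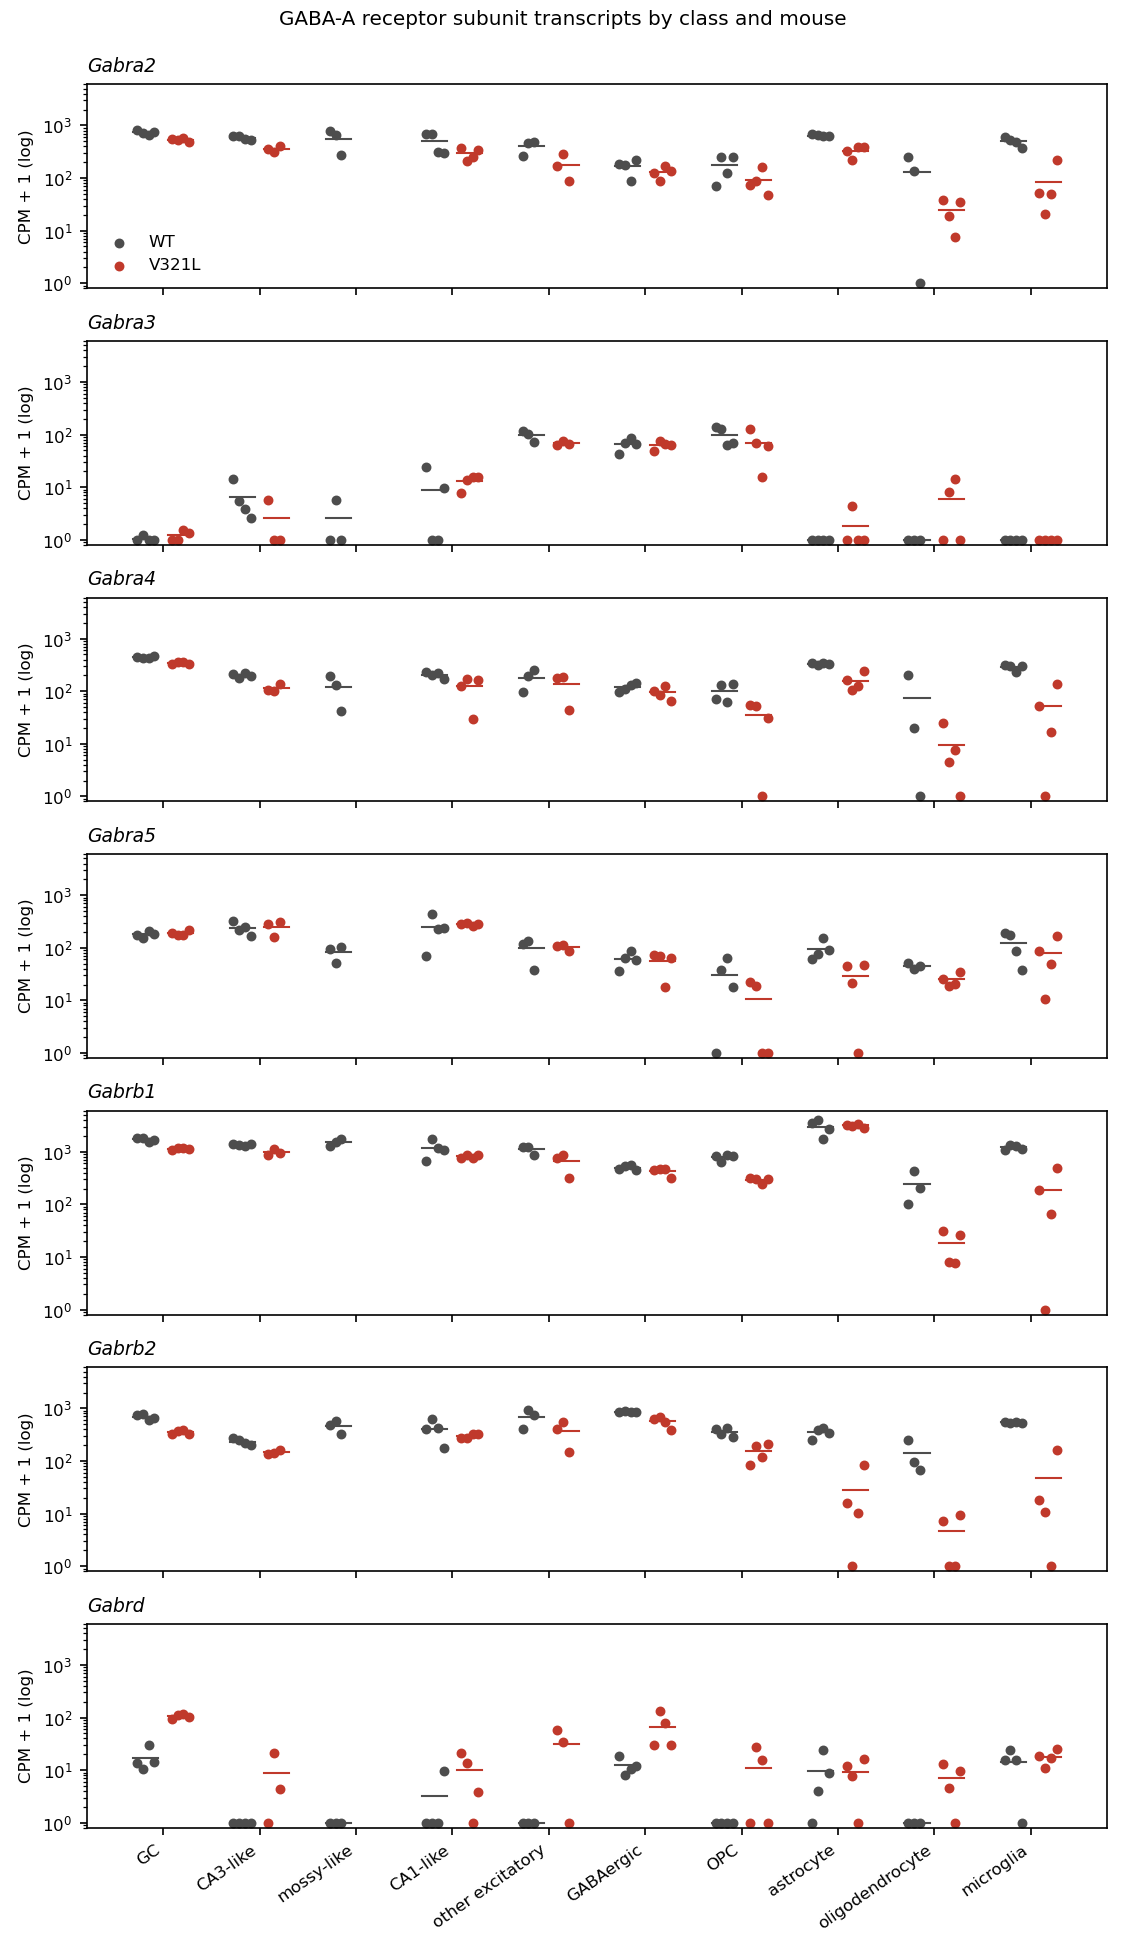
Level of each subunit gene in each class of nuclei, on a log axis of CPM + 1, with 1 point for each mouse that had at least 10 nuclei of the class and a line at the mean of each genotype. *Gabra4* in GCs lies at 418 to 458 CPM in WT and 329 to 352 CPM in V321L mice, and *Gabra3* is above 40 CPM in the WT mice drawn for GABAergic neurons, oligodendrocyte precursors and other excitatory neurons.

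Within mice, GCs were compared with each other class by edgeR with the mouse as a block, and the results share the same GC sums. *Gabra3* and *Gabrd* reached the count filter in some of these fits through 1 class alone, and they are then described by their levels. Against CA1-like nuclei the other 5 members tested passed (28.8% of all genes did). *Gabra4* was higher in GCs by 1.27 ± 0.16 on the log2 scale (± SE), *Gabra2* by 0.85 ± 0.15, *Gabrb1* by 0.60 and *Gabrb2* by 0.57, while *Gabra5*, the subunit of extrasynaptic receptors in hippocampal pyramidal neurons, was lower in GCs, at -0.49 ± 0.15 (adjusted p = 0.00584). *Gabra5* in CA1-like nuclei varied between WT mice, from 68.7 CPM (3 UMIs) in F1 to 447 CPM (18 UMIs) in F2, and from 263 to 296 CPM in V321L mice. The call of *Gabra5* was lost in WT mice alone (-0.27, adjusted p = 0.633), at 1000 UMIs per nucleus (-0.43, adjusted p = 0.190), with a gate on marker UMIs (-0.19, adjusted p = 0.749) and without the count filter (-0.39, adjusted p = 0.0561). It was also lost without WT M1 (-0.34), V321L F1 (-0.35), V321L F2 (-0.29) or V321L M2 (-0.39).

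CA3-like nuclei reached 10 nuclei in 7 of the 8 mice, and in these mice the 5 members other than *Gabrd* differed from GCs (42.3% of all genes). *Gabra5* was again lower in GCs, at -0.46 ± 0.09, and *Gabra4* higher at 1.21 ± 0.10, *Gabrb2* at 1.42, *Gabra2* at 0.36 and *Gabrb1* at 0.27 (edgeR). Per kb, WT CA3-like nuclei held 4.26 CPM of *Gabra2*, 2.24 of *Gabra4*, 1.30 of *Gabra5*, 2.78 of *Gabrb1* and 1.09 of *Gabrb2*. On this scale *Gabrb2* lay further below *Gabrb1* in CA3-like nuclei than in GCs. As a share of the *Gabrb1* and *Gabrb2* UMIs together, *Gabrb1* made up 85.4% in WT CA3-like nuclei and 71.3% ± 0.910 in WT GCs (SD, n = 4). Mossy-like nuclei, the other excitatory neurons of the hilus, came to 109 in WT and 5 in V321L mice and were not tested, with *Gabra4* at 41.2 to 190 CPM and *Gabra2* at 267.5 to 774 CPM in WT mice.

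*Gabrd* was low in all classes of WT mice. WT GCs held 16.3 ± 8.83 CPM (SD, n = 4), GABAergic neurons 9 UMIs, astrocytes 7 and microglia 5 in all, and the barcodes of at most 100 UMIs, which stand for RNA outside nuclei, held 14.8 ± 3.41 CPM. WT CA3-like nuclei held 0 *Gabrd* UMIs, where a count of 3 would make 1.30 CPM, and WT GCs held 180 UMIs, so that by CPM summed over mice GCs were at least 10.7-fold higher, with the floor of 3 counts taken over the group. Mossy-like nuclei, oligodendrocyte precursors and oligodendrocytes of WT mice also held 0 *Gabrd* UMIs, and WT CA1-like nuclei held 1. Other excitatory neurons held 0 *Gabrd* UMIs in the 3 WT mice that had them, and 59 in V321L mice, at 0 to 56.3 CPM. In V321L mice, CA3-like nuclei held 3 *Gabrd* UMIs and CA1-like nuclei 11. In CA1-like nuclei of V321L mice this came to 0 to 20.1 CPM, against 94.2 to 115 CPM in V321L GCs, with no overlap.

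GABAergic neurons had another mix, led by *Gabrb2* and including *Gabra3*. The 6 members other than *Gabra3* differed from GCs there (41% of all genes). *Gabrb2* was at 835, 900.2, 869 and 841 CPM in the GABAergic neurons of WT mice F1, F2, M1 and M2, and at 634, 669, 553 and 395 CPM in those of V321L mice. In each of the 8 mice this was above the level in GCs of the same mouse, and *Gabrb2* passed as lower in GCs at -0.41 ± 0.11 (adjusted p = 0.00218, edgeR). In WT mice alone the value was -0.26 (adjusted p = 0.0634). Per kb, WT GABAergic neurons held 4.04 CPM of *Gabrb2* and 1.02 of *Gabrb1*. GC markers summed to 954 to 1160 CPM in WT and 503 to 1068 CPM in V321L GABAergic neurons. The part of GC RNA in the levels given for this class was not tested.

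*Gabra3* was at 41.4, 67.6, 85.0 and 64.7 CPM in the GABAergic neurons of WT mice F1, F2, M1 and M2 (7 to 19 UMIs each) and at 48.7, 73.7, 64.3 and 62.9 CPM in V321L mice. These groups overlap. No fold or test against GCs is given, since GCs were at or below the floor and the gene reached the filter through the other class. *Gabra2*, *Gabra4*, *Gabra5* and *Gabrb1* were higher in GCs than in GABAergic neurons, by 2.17, 1.95, 1.76 and 1.68 on the log2 scale. *Gabrd* was higher in GCs by 0.70 ± 0.23 (adjusted p = 0.0115), but by 0.42 in WT mice alone (adjusted p = 0.58), and the call was lost without V321L F1 or without V321L M2.

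Among glia, oligodendrocyte precursor cells (OPCs) held *Gabra3* and astrocytes *Gabrb1*. *Gabra3* was at 141, 127, 61.6 and 67.3 CPM in the OPCs of WT mice F1, F2, M1 and M2, from 1 to 7 UMIs each, and overlapped with its level in GABAergic neurons. Other excitatory neurons also held it, at 117, 99.7 and 72.0 CPM in WT mice F1, F2 and M1 (4 to 34 UMIs each) and at 63.4, 75.5 and 63.9 CPM in V321L mice F2, M1 and M2, while WT M2 had 0 of these nuclei and V321L F1 had 2. *Gabrb1* in astrocytes was at 3547, 4087, 1737 and 2691 CPM in WT mice F1, F2, M1 and M2 and at 3279, 3117, 3418 and 2827 CPM in V321L mice. The highest mean of *Gabrb1* over the tested classes was therefore in astrocytes, and it was lower in GCs by 1.07 ± 0.23 (log2 -1.07, edgeR). Against OPCs, astrocytes and microglia 35.3%, 39.3% and 32% of all genes differed from GCs, and against oligodendrocytes and other excitatory neurons, in fewer mice, 46.9% and 30%. No count of members is given for these classes, since several reached the filter through GCs alone. *Gabrb2* did not pass between GCs and other excitatory neurons (0.12, adjusted p = 0.716, edgeR).

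Across the 13 classes of WT mice and 14082 genes, the genes whose mean level followed *Gabra4* most closely were *Sybu* (Pearson r = 0.934), *Sec23ip* (0.902), *Slit3* (0.884), *Map2k6* (0.884) and *Cacna1e* (0.878). For *Gabrd* they were *Gm43024* (0.865), *Myl1* (0.855), *Drd1* (0.852), *Zfp93* (0.852) and *Henmt1* (0.851). The WT profile of *Gabrd* rests on few UMIs. Its highest class mean, 22.7 CPM in 32 Cajal-Retzius nuclei, came from 1 UMI, and GCs stood at 16.3 CPM. Its list is thus not read as genes expressed together with *Gabrd*. In V321L mice r with *Gabra4* was 0.724 for *Sybu*, 0.00987 for *Sec23ip*, 0.771 for *Slit3*, 0.769 for *Map2k6* and 0.553 for *Cacna1e*. For *Gabrd* it was 0.140 for *Gm43024*, 0.175 for *Myl1*, 0.588 for *Drd1*, 0.0465 for *Zfp93* and 0.423 for *Henmt1*. These correlations are descriptions over classes that share libraries and depth.

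In GCs, *Gabrd* was higher in V321L than in WT mice and *Gabra2*, *Gabra4*, *Gabrb1* and *Gabrb2* were lower, with no overlap between the 4 mice of each genotype. Such a gap was common, since 64.2% of all genes tested did not overlap in CPM, with 48.8% higher and 15.4% lower in V321L mice. *Gabrd* was at 12.8, 9.68, 29.3 and 13.5 CPM in WT mice F1, F2, M1 and M2 (41 to 48 UMIs each) and at 94.2, 111, 115 and 100.5 CPM in V321L mice (307 to 623 UMIs each). WT M1 was the highest WT mouse, and it still lay below every V321L mouse. The means were 16.3 ± 8.83 and 105 ± 9.65 CPM (SD, n = 4 each), 6.44-fold higher in V321L GCs.

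*Gabra4* was at 436, 436, 418 and 458 CPM in WT and at 329, 351, 352 and 332 CPM in V321L GCs, with means of 437 ± 16.6 and 341 ± 12.3. *Gabra2* was at 807, 732, 668 and 759 CPM in WT and at 553, 536, 569 and 489 CPM in V321L GCs. Both were thus lower in each V321L mouse than in each WT mouse, 1.28-fold for *Gabra4* and 1.38-fold for *Gabra2* on the CPM scale. *Gabra5* overlapped, with 177, 152, 207 and 182 CPM in WT and 190, 174, 177 and 216 CPM in V321L GCs.

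*Gabrb2* showed the larger gap of the beta subunits. It was at 742, 788, 592 and 658 CPM in WT and at 325, 367, 381 and 327 CPM in V321L GCs, 1.99-fold lower by the means. *Gabrb1* was at 1830, 1861, 1560 and 1642 CPM in WT and at 1069, 1158, 1172 and 1110 CPM in V321L GCs, 1.53-fold lower. Because *Gabrb2* was further apart than *Gabrb1*, the share of *Gabrb1* among their UMIs was 70.3% to 72.5% in WT and 75.4% to 77.3% in V321L GCs. The share of *Gabrd* among the UMIs of all 7 members was 0.443% ± 0.272 in WT and 3.97% ± 0.223 in V321L GCs (SD, n = 4 each).

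**Figure D2:**
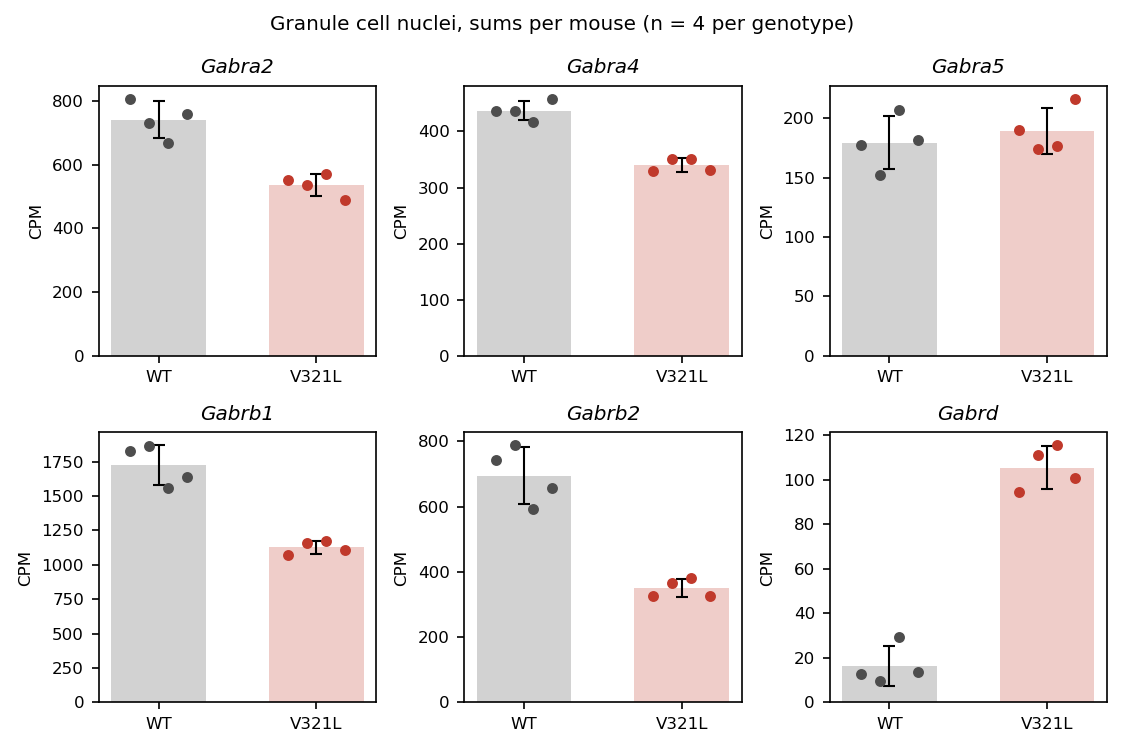
Level of each subunit gene in the GCs of each mouse, in CPM on a linear axis from 0, with bars at the mean of 4 mice, error bars of 1 SD and points for single mice. The genotypes do not overlap for *Gabra2*, *Gabra4*, *Gabrb1*, *Gabrb2* and *Gabrd*, and they overlap for *Gabra5*, at 152 to 207 CPM in WT and 174 to 216 CPM in V321L mice.

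By edgeR, with TMM scaling, all 6 members tested in GCs passed an adjusted p of 0.05, as did 70.4% of all genes. *Gabrd* rose by 2.36 ± 0.21 on the log2 scale (adjusted p = 6.91e-07), and *Gabrb2* (-1.46 ± 0.14), *Gabrb1* (-1.08 ± 0.13), *Gabra2* (-0.93 ± 0.12), *Gabra4* (-0.82 ± 0.10) and *Gabra5* (-0.37 ± 0.10, adjusted p = 0.00397) fell. Among all genes 38.7% rose and 31.7% fell. With library sizes in place of TMM, 54.8% rose and 17.1% fell, the median over all genes moved from 0.12 to 0.58 on the log2 scale, and *Gabra5* was at 0.080 (adjusted p = 0.516). Relative to that median, *Gabra5* stood at -0.49 with TMM and -0.50 with library sizes, and *Gabrd* at 2.25 and 2.23.

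Gene length moved with these differences. The median log2 fold change was 1.73 over genes shorter than 10 kb, 0.77 over genes of 10 to 20 kb, -0.37 over genes of 50 to 100 kb, -0.67 over genes of 100 to 200 kb and -0.92 over genes of 200 to 500 kb. *Gabrd*, the only short member, lay above 96.0% of the genes of its length range, and *Gabrb2* above 8.66% of those of its own. *Gabra2*, *Gabra4* and *Gabrb1* lay above 28.5%, 20.6% and 34.8% of theirs, and *Gabra5* above 71.6%. With the length trend taken out as an offset, *Gabrd* was at 1.59, *Gabrb2* at -0.68, *Gabra4* at -0.37 and *Gabra2* at -0.31, all of which still passed. *Gabrb1* did not pass there, at -0.030 (adjusted p = 0.728), and *Gabra5* turned to 0.35 (adjusted p = 0.0123), while 54% of all genes passed.

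**Figure D3:**
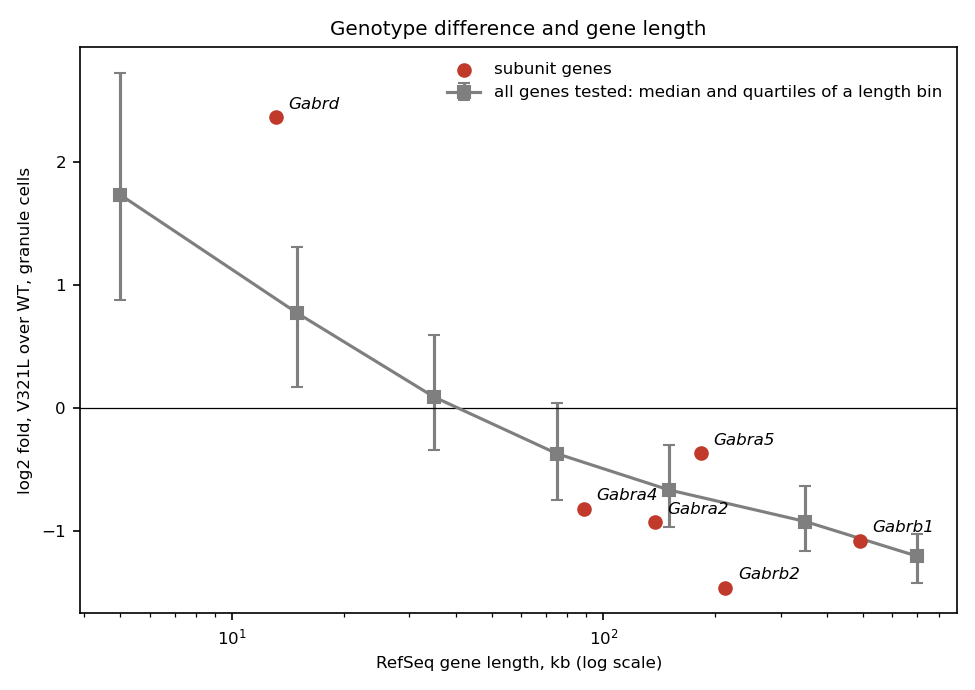
Log2 fold change of V321L over WT GCs against gene length on a log axis in kb, with the 6 members tested as labelled points and grey squares at the median of all genes in each length range, with quartiles. The medians go from 1.73 below 10 kb to -1.20 above 500 kb, and *Gabrd*, at 2.36, lies above the square of its range.

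The share of GC nuclei with a *Gabrd* UMI was 2.68% ± 0.586 in WT and 31.2% ± 6.21 in V321L mice. With nuclei thinned to 1000 UMIs it was 1.84% ± 0.940 and 9.81% ± 1.18 (SD, n = 4 each), and each V321L mouse lay above each WT mouse (two-sided exact permutation p = 0.0286, the smallest that 4 against 4 allow). In oligodendrocytes, which should lack the gene, the share was 0% in WT and 0.695% ± 0.585 in V321L mice, at medians of 619.5 to 842 and 913 to 1299.5 UMIs against 1036 to 1918 and 3137 to 4650 in GCs. For *Gabra4* the share went from 46.6% ± 7.81 in WT to 67.2% ± 9.90 in V321L mice as counted, but from 33.5% ± 1.55 to 28.5% ± 0.799 at 1000 UMIs. The order of the genotypes for *Gabra4* thus turned with depth, and the order at 1000 UMIs is that of the CPM. In oligodendrocytes the share with *Gabra4* was 3.42% in WT and 0.988% in V321L mice.

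The difference in *Gabrd* was also found inside single GC clusters, although the genotypes filled the clusters unequally. In the cluster of 1611 WT and 676 V321L nuclei *Gabrd* was at 13.1 and 119 CPM, and *Gabrb2* at 823 and 451 CPM. In the cluster of 1739 WT and 339 V321L nuclei *Gabrd* was at 19.4 and 101 CPM. The barcodes with at most 100 UMIs held *Gabrd* at 14.8 ± 3.41 CPM in WT and 41.3 ± 7.33 CPM in V321L libraries, *Gabra2* at 673 and 181 CPM, and *Gabrb2* at 161 and 25.8 CPM. In WT libraries *Gabrd* was therefore as low in GCs as in these barcodes, and the part of free RNA in the WT level of *Gabrd* was not tested.

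The accessibility of the promoters in GCs showed no member past the test. Only genes with a peak within 1 kb of a start in all 8 libraries were fitted, which held 4 of the 7 members, and 0 of the 4 passed, where 0.0153% of all genes did (edgeR, with 1088 genes but 0 members at an unadjusted p under 0.05). At *Gabrd*, where the peak shared by all libraries covered 155397678 to 155398494 of chromosome 4, WT mice had 23.7 to 29.7 CPM of ATAC counts and V321L mice 19.1 to 31.8. The groups overlap, and the log2 difference was -0.23 ± 0.12, with a 95% interval from -0.53 to 0.078. For *Gabra2*, *Gabra4* and the downstream start of *Gabrb1* the differences were 0.017 ± 0.11, -0.036 ± 0.11 and 0.014 ± 0.15. These sums take in neighbouring peaks, so that the peaks at the starts of the printed windows held 1218 of 1527 counts for *Gabra4* and 377 of 1395 for *Gabrb1*. *Gabra3*, at almost no UMIs in GCs, had a promoter peak in 0 libraries, *Gabra5* in 7 and *Gabrb2* in 6.

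Other genes of GABA signalling in GCs are given by list, to be read against all genes, of which 38.7% rose and 31.7% fell with a median of 0.12 on the log2 scale. Of 13 tested genes for receptor scaffold and trafficking, 6 rose and 5 fell, among them *Gphn*, which encodes the synaptic scaffold gephyrin, at -1.20, and *Gabarap*, which encodes a receptor-associated trafficking protein, at 2.96. *Gabarap*, 3.58 kb long, was low in WT GCs, at 5.83 CPM, and at 57.0 CPM in V321L GCs. Of the chloride transport genes, *Slc12a5*, which encodes the chloride extruder KCC2, rose by 0.48, and *Slc12a2*, which encodes the chloride importer NKCC1, fell by 1.12 on the log2 scale. Altogether 1 of 5 chloride genes rose and 3 fell.

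Against the same shares of all genes (38.7% and 31.7%), 2 of the 3 tested neurosteroid genes rose, *Cyp11a1* (the enzyme that starts steroid synthesis) at 0.88 and *Star* (the cholesterol carrier) at 0.53, and *Srd5a1*, a 5-alpha-reductase, fell at -0.80. All 3 were low in GCs, at 3.67, 5.06 and 4.74 CPM in WT and 9.45, 9.67 and 4.01 CPM in V321L mice. *Star* is 7.5 kb long and lay below the lower quartile of genes shorter than 10 kb (0.88). Of 5 metabotropic receptor genes, *Gabbr1* rose at 0.90, and *Kctd16* and *Kctd8*, which encode auxiliary subunits of the metabotropic receptor, fell at -1.13 and -1.15. *Kctd8* was low, at 4.63 CPM in WT and 2.96 CPM in V321L GCs. Of 6 genes for GABA synthesis and transport, *Gad1*, which encodes a GABA-making enzyme, rose at 0.36 (adjusted p = 0.0493), and *Slc6a11*, a GABA transporter, fell at -0.99. *Slc6a11* was low as well, at 7.08 CPM in WT and 4.65 CPM in V321L GCs. These lists hold short and long genes, and the length trend given above runs through them as well.

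In the other neurons the members mostly did not pass between the genotypes, except in CA3-like nuclei. There, in 4 WT and 3 V321L mice, 4 of 5 members passed (52% of all genes), all 4 lower in V321L mice (23.6% of all genes), with *Gabra4* at -0.93 ± 0.19, *Gabra2* at -0.90 ± 0.17, *Gabrb2* at -0.88 ± 0.19 and *Gabrb1* at -0.76 ± 0.15, and *Gabra5* at 0.011 ± 0.20 (adjusted p = 0.971, edgeR). *Gabra2* in CA3-like nuclei was at 621, 642, 547.5 and 534 CPM in WT mice F1, F2, M1 and M2 and at 352, 317, 360 and 398 CPM in V321L mice, of which M1 had 9 nuclei and was not fitted. *Gabra4* and *Gabra2* thus fell in CA3-like nuclei as in GCs. The length trend ran through CA3-like nuclei too. The median was -0.63 over all genes longer than 100 kb and 1.74 over those shorter than 20 kb. For the longer genes it was -0.22 in CA1-like nuclei, -0.38 in GABAergic neurons and -0.15 in OPCs. In astrocytes and microglia it was -0.71 and -0.73. The part of gene length in the differences of these classes was not tested. GC markers summed to 192 to 325 CPM in WT and 46.9 to 238 CPM in V321L CA3-like nuclei, and their part was not tested.

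In CA1-like nuclei 0 of 5 members passed (30.9% of all genes did), with 0 at an unadjusted p under 0.05 by edgeR and 0 by DESeq2. *Gabrb2* there was at 412, 620, 420 and 177 CPM in WT and at 297 ± 26.9 CPM in V321L mice (SD, n = 4), a log2 difference of -0.19 ± 0.28 with a 95% interval from -0.88 to 0.49. The difference between this value and that in GCs was tested itself and passed, at -0.99 ± 0.24 for GCs relative to CA1-like nuclei (adjusted p = 0.0108), where 0.701% of all genes passed. It was lost without WT M2 (-0.67) and without V321L M2 (adjusted p = 0.116), and with library sizes (-0.67, adjusted p = 0.339).

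In GABAergic neurons 1 of 6 members passed (36.4% of all genes), namely *Gabrb2*, which fell by 0.69 ± 0.18 on the log2 scale (log2 -0.69, adjusted p = 0.00579). *Gabrd* did not reach the count filter there. It was at 17.8, 7.12, 9.45 and 10.8 CPM in the GABAergic neurons of WT mice, from 1 to 3 UMIs each, and at 28.4, 130, 77.1 and 28.6 CPM in those of V321L mice, from 5 to 23 UMIs each. The lowest V321L mouse lay above the highest WT mouse, and without the filter *Gabrd* passed. These neurons also held GC markers, at 954 to 1160 CPM in WT and 503 to 1068 CPM in V321L mice. GCs of V321L mice held more *Gabrd* than those of WT mice, and the part of GC RNA in this gap was not tested. No member's genotype difference passed as different between GCs and GABAergic neurons (0 of 7, where 0.692% of all genes passed). By edgeR 2 members were under 0.05 before adjustment, *Gabrb1* at -0.57 and *Gabrb2* at -0.54. Against OPCs 0 of 7 passed (0.967% of all genes), with 0 before adjustment. For *Gabra3*, with 1 UMI in all WT GCs and 3 in all V321L GCs, neither test can decide. Nor can the OPC test for *Gabrd*, with 0 UMIs in WT and 4 in V321L OPCs.

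**Figure D4:**
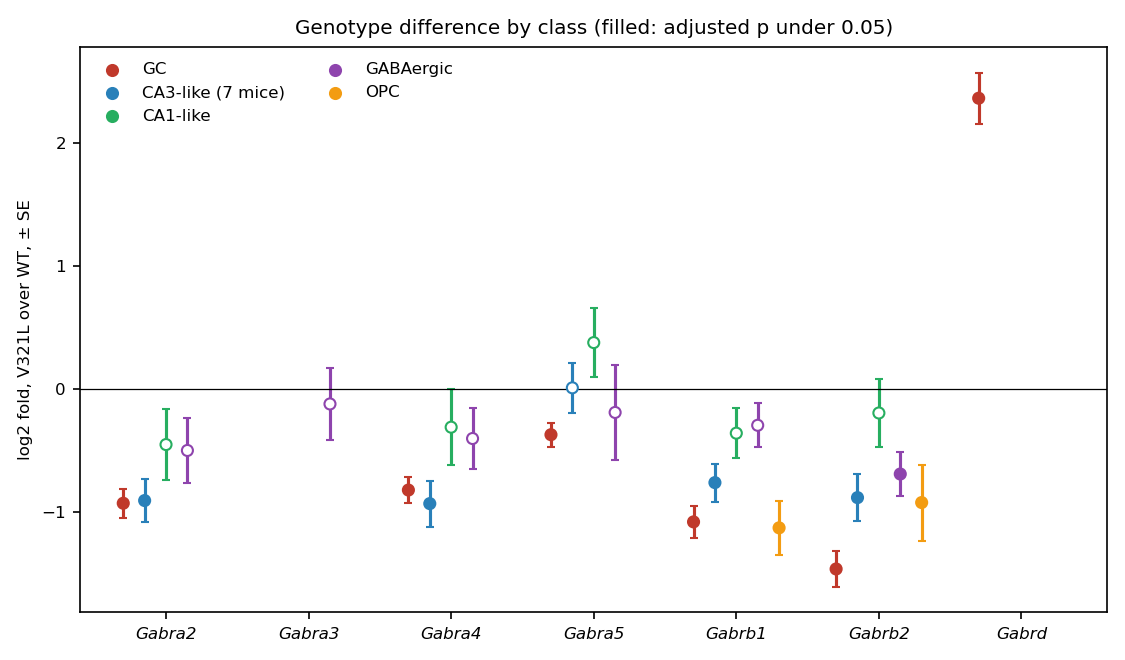
Log2 fold change of V321L over WT (± SE, edgeR) for each member in GCs and in 4 other classes, with filled points for adjusted p under 0.05 and open points above it, and no point where a gene did not reach the count filter. Among these classes (CA3-like, CA1-like, GABAergic and OPC) and GCs, *Gabrb2* lies between -1.46 in GCs and -0.19 in CA1-like nuclei, and *Gabrd* has a point in GCs alone.

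In glia, several members were lower in V321L mice, and so were the GC markers. In astrocytes 4 of 5 members passed (53.8% of all genes), all 4 lower in V321L mice (27.6%), with *Gabra2* at -1.14, *Gabra4* at -1.20, *Gabra5* at -1.66 and *Gabrb2* at -3.92 ± 0.56, while *Gabrb1*, the subunit astrocytes hold most of, was at -0.076 ± 0.27 (adjusted p = 0.828). *Gabrb2* in astrocytes was at 252, 388, 430 and 336 CPM in WT mice and at 0 to 82.8 CPM in V321L mice. *Gabra5* there was at 59.4 to 154 CPM in WT and 0 to 46.6 CPM in V321L mice. Both genes could pass the count filter through WT mice alone, so no conclusion is drawn from their direction. The GC markers summed to 2864 to 3418 CPM in WT and 629 to 1217 CPM in V321L astrocytes. Without the 300 of 602 WT and 31 of 519 V321L astrocytes whose GC markers passed 2249 CPM, 0 of the 3 members still tested passed, where 36.8% of all genes did (1 under 0.05 before adjustment, edgeR). *Gabra2* was then at -0.65 ± 0.25 (adjusted p = 0.0598), *Gabra4* at -0.46 ± 0.26 (adjusted p = 0.197) and *Gabrb1* at -0.32 ± 0.22. The same limit served both genotypes, although the markers summed to 4875 to 5961 CPM in WT and 3471 to 3958 CPM in V321L GCs. *Rfx3*, the largest of them, was at 3847 CPM in WT and 1708 CPM in V321L GCs. The marker sums and the filter thus do not measure GC RNA equally in both genotypes. The part of GC RNA beyond this filter was not tested. Before that filter the genotype difference itself differed from that in GCs for 2 of 6 members in astrocytes (12.7% of all genes) and for 4 of 6 in microglia (8.01%), and after it for 0 of 6 in each, where 0.757% and 0.706% of all genes did (1 and 0 members under 0.05 before adjustment, edgeR). *Gabrb2* then still stood at 1.51 in astrocytes and 1.79 in microglia.

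In microglia 4 of 4 members passed, all lower in V321L mice (49.7% of all genes passed, 21.8% as lower). WT levels alone could carry these 4 past the count filter. *Gabra2* was at 368 to 593 CPM in WT and 19.5 to 219 CPM in V321L microglia, and *Gabrb2* at 528 to 550 and 0 to 158 CPM. The count filter could thus fix the direction, and no conclusion is drawn from this count. The same GC marker filter took out 89 of 173 WT and 7 of 256 V321L nuclei. *Gabrb1* alone was then still tested, at -1.80 ± 0.95 (adjusted p = 0.191, edgeR), where 22.7% of all genes passed. In OPCs 2 of 2 passed (25.8%) and both were lower in V321L mice (10.2%), *Gabrb1* at -1.13 ± 0.22 (adjusted p = 0.000355) and *Gabrb2* at -0.92 ± 0.31 (adjusted p = 0.0295). *Gabrb2* was at 286 to 431 CPM in WT and 84.3 to 213 CPM in V321L OPCs. It could pass the count filter through WT mice alone, so no conclusion is drawn from its direction or from this count. *Gabrb1* in OPCs was at 821, 637, 862.5 and 824 CPM in WT and at 316, 305, 246 and 304 CPM in V321L mice, with no overlap. GC markers summed to 862 to 1266 CPM in WT and 362 to 471 CPM in V321L OPCs, and their part was not tested beyond the filter, under which *Gabrb1* was at -0.87 and still passed and *Gabrb2* was at -0.32 (adjusted p = 0.595), with 18.4% of all genes called. In the added fits with fewer mice, 1 of 1 member passed in oligodendrocytes (32.7%), *Gabrb1* at -3.82 ± 0.62. It was at 6.58 to 30.4 CPM in V321L oligodendrocytes and reached the count filter through WT mice, so no conclusion is drawn from this count. In other excitatory neurons 0 of 6 passed (14.6%), with 2 under 0.05 before adjustment by edgeR.

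GCs with at least 1 *Sorcs3* UMI had more *Gabrb2* and *Gabra4* and less *Gabra5* than GCs of the same mouse without one. *Sorcs3* is a marker of semilunar granule cells, but alone it does not meet the joint rule of the study. *Gabrb2* in *Sorcs3*+ GCs was at 1008, 840.1, 706 and 765 CPM in WT mice F1, F2, M1 and M2 and at 376, 436, 451 and 427 CPM in V321L mice. In *Sorcs3*- GCs it was at 689, 780.5, 584.5 and 645 CPM and at 317, 356, 371 and 313 CPM. It was thus higher in the *Sorcs3*+ GCs of 8 of 8 mice, by 0.32 ± 0.05 on the log2 scale (adjusted p = 1.98e-08, edgeR with the mouse as a block).

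*Gabra4* was also higher in 8 of 8 mice, by 0.23 ± 0.05 (adjusted p = 0.000543). *Gabra5* was lower in 7 of 8 mice, at -0.33 ± 0.08 (adjusted p = 0.000432), with WT M2 as the exception. *Gabra2* (0.13 ± 0.05, adjusted p = 0.047) and *Gabrb1* (0.11 ± 0.04, adjusted p = 0.0329) passed narrowly, and *Gabrd* was at 0.16 ± 0.12 (adjusted p = 0.48). Altogether 5 of 6 members passed (14% of all genes), and 2 to 4 when any 1 mouse was left out. *Gabrb2* and *Gabra5* passed without each of the mice, and *Gabra4* was lost without WT F2. *Gabrb1* was kept only without V321L F1 or V321L F2, and *Gabra2* only without V321L M1. *Sorcs3*+ GCs, of which there were 78 to 243 per mouse, had a higher median of UMIs than *Sorcs3*- GCs in each mouse. Against *Sorcs3*- GCs of matched depth 3 members passed, without *Gabra2* and *Gabrb1*. The share of all genes in that fit is not given, so the count is read only against the 5 above.

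*Penk*+ GCs were fewer, with 14 to 27 per WT mouse and 47 to 92 per V321L mouse, and 1 of 6 members passed (6.73% of all genes). *Gabra5* was at 105, 164, 0 and 54.9 CPM in the *Penk*+ GCs of WT mice F1, F2, M1 and M2, from 0 to 9 UMIs each, and at 173, 106, 123 and 151 CPM in those of V321L mice. In *Penk*- GCs it was at 179, 152, 209.5 and 183.5 CPM and at 192, 180, 180 and 220 CPM. It was lower in the *Penk*+ GCs of 7 of 8 mice, with WT F2 as the exception, at -0.62 ± 0.14 on the log2 scale (adjusted p = 0.000686, edgeR).

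*Gabrb2* was higher in the *Penk*+ GCs of 8 of 8 mice by CPM, but was at 0.16 ± 0.11 with TMM (adjusted p = 0.569) and at 0.29 with library sizes (adjusted p = 0.00992). *Gabra4* was higher in the *Penk*+ GCs of 6 of 8 mice by CPM, and at -0.049 to 0.069 with TMM when any 1 mouse was left out. *Gabrd* was at 0.38 ± 0.16 (adjusted p = 0.155), and at 0.49 against *Penk*- GCs of matched depth (adjusted p = 0.0232). In WT mice alone 0 of 6 members passed between *Penk*+ and *Penk*- GCs by edgeR (2 under 0.05 before adjustment), with *Gabra5* at -1.14 (adjusted p = 0.0733).

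**Figure D5:**
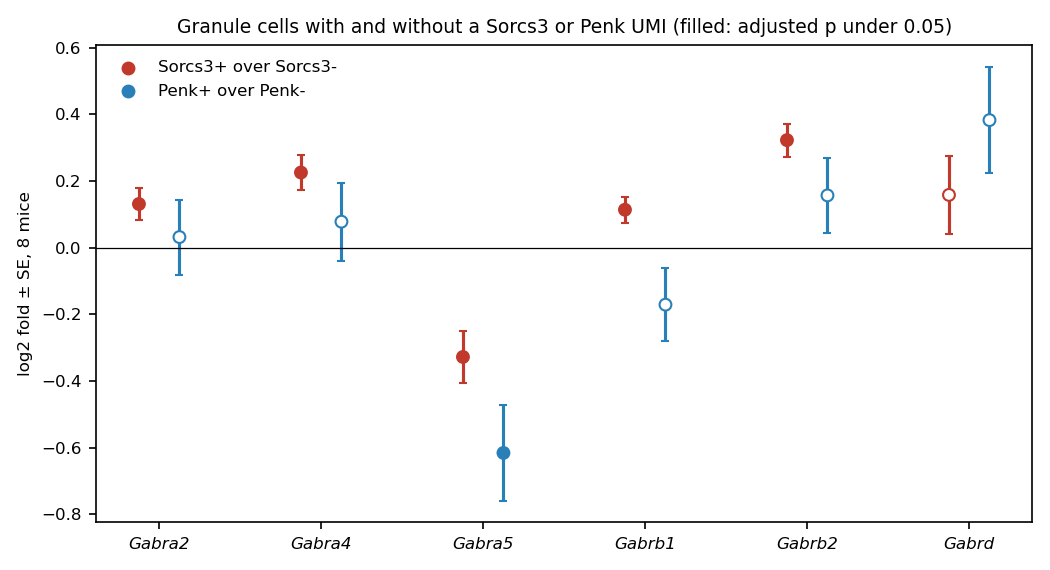
Log2 fold change (± SE, edgeR with the mouse as a block) of the 6 members tested, between GCs with and without a *Sorcs3* UMI and between GCs with and without a *Penk* UMI, in 8 mice. *Gabra5* lies at -0.33 for *Sorcs3* and -0.62 for *Penk*, both filled points (adjusted p under 0.05), and *Gabrb2* at 0.32 for *Sorcs3*.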

How the data were processed

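Nuclei from the DG of 8 mice were measured with the 10x Multiome kit. The authors deposited raw counts, namely RNA UMIs per gene and ATAC counts in peaks called per library, and the submitters' processing notes name Cell Ranger, Seurat, Signac and mm10, with no versions. The members and lists were chosen with earlier results of these data known. Nuclei had more than 500 UMIs, more than 250 genes and at least 500 ATAC counts, with the upper limits of the study, and doublets above the mean + 2 SD were removed. The 19 subunit genes were left out of clustering (scanpy 1.11.5, leidenalg 0.10.2, 3000 variable genes, 75 components, 20 neighbours, resolution 1), and classes were named by markers, with 243 nuclei (1.48%) unnamed. Raw counts were summed per mouse and class with at least 10 nuclei in every mouse, and tested with edgeR 4.0.16 in R 4.3.3 (TMM, filterByExpr, Benjamini-Hochberg over all genes at 0.05). CPM are scaled to the UMIs of the class in each mouse, without TMM. TMM factors were 0.759 to 0.953 in WT and 1.15 to 1.18 in V321L GCs, so that log2 differences lie below those of CPM. Fits in 7 or 6 mice were added after the data were seen. Alternatives changed the scaling, filter, depth, class gate, tool (DESeq2 1.42.0), block, sex covariate, nuclei filters and mice. The replicate numbers do not pair the mice. Scripts were tested on simulated data. Named were the 7 members, up to 4 genes per pathway list with the lowest adjusted p, and the 5 genes most like *Gabra4* and *Gabrd*. Other computations used Python 3.11.15, SciPy 1.17.1 and matplotlib 3.10.9. Fragments and trajectories were not analysed here, and the list of other subunit genes is not reported here.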

Additional observations from a re-analysis of the deposited data

Results flagged for a closer look

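The genotype difference (V321L minus WT, on the log2 scale) passed as different between GCs and another class in 7 cases, from 5 members, by edgeR's test of the interaction. Each value is the difference of the 2 differences, signed as in the report. Against CA1-like nuclei it was *Gabrb2*, at -0.99. In astrocytes it was *Gabra5* at 1.48 and *Gabrb2* at 2.69. In microglia it was *Gabra2* at 2.14, *Gabra4* at 2.14, *Gabrb1* at 2.53 and *Gabrb2* at 2.56. In astrocytes 12.7% and in microglia 8.01% of all genes passed the same test. Without nuclei whose GC markers passed 2249 CPM, *Gabrb2* in CA1-like nuclei was at -1.06 and still passed, and none of the 6 values in astrocytes and microglia did. *Gabra5* in astrocytes then stood at -0.37, *Gabrb2* in astrocytes at 1.51 (adjusted p = 0.351), and *Gabra2*, *Gabra4*, *Gabrb1* and *Gabrb2* in microglia at 0.65, 0.50, 0.89 and 1.79. Of 55 groups of 4 mice, 0 held a mouse that stood apart from the others by Dixon's test.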

How the results depend on the processing

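The alternatives changed 1 choice at a time. Counts of members in this section come without the shares of all genes in the same fits. They are therefore read only against the counts of the main fits. Of the log2 differences recomputed without leaving out a mouse, 488 kept their side of the threshold, 45 were no longer past it and 6 were newly past it. A further 3 turned in sign and were past the threshold in the main or the alternative setting. Values that turned in sign with neither setting past the threshold are counted among the 488. The 3 were *Gabra5* by genotype in GCs with library sizes (0.080) and with the length offset (0.35), and *Gabra5* in the astrocyte interaction without nuclei of high GC marker level (-0.37). Between genotypes, the number of members called went from 1 to 0 in GABAergic neurons at 1000 UMIs per nucleus and to 3 without the count filter. In OPCs it went from 2 to 0 at 1000 UMIs, and to 1 with DESeq2 or without nuclei of high GC marker level. In microglia it went from 4 to 1 at 1000 UMIs and to 0 without those nuclei, and in astrocytes from 4 to 0 without them. At 1000 UMIs only 2 members in GABAergic neurons, 1 in OPCs and 1 in microglia reached the count filter, and without those nuclei 3 members in astrocytes and 1 in microglia did. For the interactions it went to 0 in CA1-like nuclei with library sizes, and to 0 in astrocytes and in microglia without those nuclei. For *Sorcs3* it went from 5 to 3 at matched depth and with library sizes, to 2 in WT mice and to 2 in V321L mice. For *Penk* it went from 1 to 3 at matched depth, to 0 in WT mice, to 3 in V321L mice and to 2 with library sizes.

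With a block for the replicate number, 6 members were called in GCs, 0 in CA1-like nuclei, 1 in GABAergic neurons, 2 in OPCs, 4 in astrocytes, 2 in microglia (4 without the block) and 0 promoters. Same-numbered mice correlated at 0.0632, 0.256, -0.127 and -0.00478, and 1 of 4 correlated best with its own number, so that the numbers only name the mice.

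Leaving out each mouse in turn gave 6 to 6 members in GCs by genotype, 0 to 1 in CA1-like nuclei, 1 to 2 in GABAergic neurons, 1 to 2 in OPCs, 3 to 4 in astrocytes and 3 to 4 in microglia. GCs against other classes gave 5 to 6 for CA1-like nuclei (28.8% of all genes with all mice) and 6 to 7 for GABAergic neurons (41%). These counts take in *Gabrd* and *Gabra3* where they reached the filter through 1 class alone. For OPCs, astrocytes and microglia no counts are given, since several members reached the filter through GCs alone. Interactions gave 0 to 3 for CA1-like nuclei, 0 to 0 for GABAergic neurons and OPCs, 2 to 5 for astrocytes (5 without V321L M2) and 1 to 5 for microglia (1 without V321L F2, 2 without V321L M1). *Sorcs3* gave 2 to 4, *Penk* 1 to 1 and promoters 0 to 0. *Gabrb2* in OPCs was lost without WT F1, V321L F1 or V321L M1, *Gabra2* in GABAergic neurons was gained without WT M1, and *Gabrb1* in CA1-like nuclei was gained without WT F1. The causes were not tested. Depth limits *Gabrd*, which held 41 to 48 UMIs per WT mouse in GCs, and *Gabra3*.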
